A study of Macaca mulatta with 30 samples.

Results

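The genes described here are 10 transcripts listed together as meningeal fibroblast and collagen genes: COL1A1, COL1A2, COL3A1, DCN, LUM, IGF2, PCOLCE, SLC6A13, KIAA1199 and CYP26B1. CYP26B1 followed the others least. They were taken by symbol from a table of 15521 genes of cortical area 32, a medial prefrontal region, in which all 10 were listed. All 10 also passed the filter on low values, which left 12935 genes for testing (10 normalized reads or more in 6 or more of the libraries). The 10 genes were chosen by their measured levels and co-variation in these same libraries, so both are given as a description, and the model values below are no independent evidence.

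The meninges are the connective tissue sheets around the brain. Their fibroblasts make fibrillar collagen, small proteoglycans that dress the collagen fibres, growth factors and enzymes that make or break down retinoic acid, and the arachnoid and pial layers carry transporters that clear solutes from the cerebrospinal fluid. Within the cortex, fibroblasts are rare and sit along larger vessels, while the pia covers its surface. In a bulk sample, fewer cells of a type and less RNA per cell cannot be told apart.

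The libraries come from 30 male rhesus macaques (Macaca mulatta), 1 library per animal. After induction, every animal could drink 4% (w/v) ethanol by choice for over 12 months, so no group is free of ethanol. Very heavy drinkers (VHD, n = 6) averaged over 3 g/kg of ethanol a day and passed 4 g/kg on at least 10% of days. Heavy drinkers (HD, n = 7) reached 3 g/kg on at least 20% of days. Binge drinkers (BD, n = 7) reached 2 g/kg on at least 55% of days and a blood ethanol concentration of 80 mg/dl at least yearly, and low drinkers (LD, n = 10) met none of these limits. The cohorts were cohort 4 (n = 9), cohort 5 (n = 8), cohort 7b (n = 5) and cohort 7a (n = 8), with average ages after drinking of 9.98, 7.15, 7.18 and 5.70 years. The categories lie unevenly over them. VHD animals came from cohorts 5 (n = 4) and 7a (n = 2), cohort 5 held no LD animal, and HD animals came from cohorts 5 (n = 3), 7a (n = 2), 7b (n = 1) and 4 (n = 1). The brains were perfused with artificial cerebrospinal fluid before area 32 was dissected. The labels do not say whether the pia was left on the tissue.

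The libraries held 4.39 to 13.99 M reads (M, mega) in the measured exons, with a median of 9.08 M. Values are the deposited normalized reads, scaled by the submitters to a common upper quartile, and the 10 genes together took 0.0195% to 0.0845% of the reads of a library. HD replicate 5 lay far above the other HD animals for COL3A1, DCN and LUM, and HD replicate 3 far below the rest of cohort 7b for COL3A1, so the HD and VHD estimates are also given without each of them. Neuronal genes were abundant in the same libraries, as in cortex: CAMK2A, a postsynaptic kinase, reached 28474 normalized reads. Of the fibroblast and meningeal markers outside the 10 genes, 54 of 59 listed were present and past the filter, led by PTGDS (median 5963, from 2430 to 12876 normalized reads), the prostaglandin D synthase of the leptomeninges.

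Per kilobase of exon, DCN, the small proteoglycan decorin, had the highest level of the 10, with a median of 274 normalized reads per kb over the 30 libraries. COL1A2 followed at 171, KIAA1199 at 137 and COL3A1 at 79.5 normalized reads per kb. The type III collagen thus stood well under the α2 chain of type I. IGF2 stood at 69.6, SLC6A13 at 59.9 and LUM at 56.8 normalized reads per kb. PCOLCE had a median of 43.5, COL1A1 of 36.0 and CYP26B1 of 13.5 normalized reads per kb, the lowest level of the 10. Some steps in this order were clear and others were not. KIAA1199 stood above COL3A1 in 30 of 30 libraries, COL1A1 above CYP26B1 in 28 and DCN above COL1A2 in 26. IGF2 stood above SLC6A13 in 16 of 30 libraries and PCOLCE above COL1A1 in 17, mean log2 differences per kb of 0.079 ± 0.65 and 0.13 ± 0.69 (SD, n = 30), so these neighbours did not differ beyond their spread. The chains of type I collagen, COL1A1 and COL1A2, lay far apart in this order, which depends on the exon lengths listed for each gene. The COL1A1 exon at 42918601 to 42920140 (1540 bases) held 4.17% of the gene's reads, with a median of 6.49 normalized reads per kb. Its length lowers the COL1A1 level per kb, and the order without it was not computed.

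The animals differed far more in these genes than in most others. COL1A1 ran from 32.5 normalized reads in HD replicate 3 to 738 in BD replicate 4, which is 22.7-fold. COL1A2 ran from 204 in HD replicate 3 to 2377 in LD replicate 8 (11.7-fold), and CYP26B1 from 26.4 in VHD replicate 1 to 244 in LD replicate 8 (9.22-fold). The narrowest of the 10 was KIAA1199, with 561 normalized reads in HD replicate 2 and 1639 in VHD replicate 5 (2.92-fold). The SD of the log2 value over the 30 libraries was 1.08 for COL1A1, 0.93 for COL1A2 and 0.42 for KIAA1199, against a median of 0.22 over all 12935 tested genes. Among those genes the SDs of the 10 lie between percentile 85.1 (KIAA1199) and percentile 99.5 (COL1A1). At the lowest values the depth is thin: COL1A1 rested on 22 reads and PCOLCE on 14 in HD replicate 3.

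The spread was shared. Each gene was scaled to mean 0 and SD 1 over the 30 libraries, and the mean of these z values over the 10 genes gave 1 number per library. It was lowest in HD replicate 3 (−1.75), HD replicate 2 (−1.53), HD replicate 7 (−1.20) and VHD replicate 1 (−1.06), and in these 4 libraries all 10 genes lay below their own mean. It was highest in LD replicate 8 (1.49), HD replicate 5 (1.24), LD replicate 2 (1.14), VHD replicate 2 (1.05) and VHD replicate 5 (1.05). In these 5 libraries at most 1 of the 10 genes lay below its own mean. The mean z value had a Pearson r of 0.24 with log2 depth and of 0.24 with the library number in the labels, over n = 30.

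**Figure D1:**
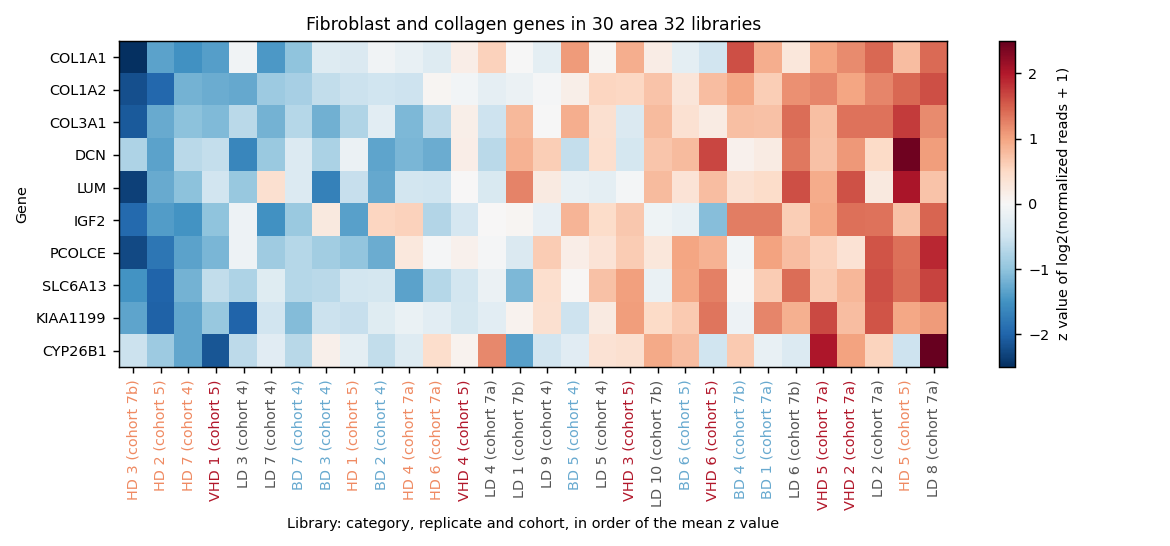
z values of log2(normalized reads + 1) for the 10 genes (rows) in 30 libraries (columns, sorted by the mean z value; label colours give the drinking category). Red is above and blue below the gene's own mean; HD replicate 3 at the left (mean z −1.75) is blue in all 10 rows and LD replicate 8 at the right (1.49) is red in all 10.

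Over the 45 pairs of the 10 genes, Pearson r of the log2 values had a median of 0.74 and ran from 0.29 to 0.92 (n = 30 libraries, which share their depth and scaling), with 40 pairs over 0.5. Once the means of category and cohort were removed, the median was 0.68, with a range of 0.05 to 0.87 and 31 pairs over 0.5. COL1A2 was the gene closest to the mean of the other 9 (r = 0.98), followed by COL3A1 (0.90) and PCOLCE (0.90), and CYP26B1 was the farthest (0.56). Once the means of category and cohort were removed, the median r of CYP26B1 to the other 9 was 0.26. The same median ran from 0.52 (COL1A1) to 0.79 (COL1A2) in the rest. The highest pair was COL1A1 with IGF2 (0.92), a collagen chain with a fetal growth factor, and COL1A2 with COL3A1 stood at 0.90. The lowest was DCN with CYP26B1 (0.29). Between both ends, DCN and LUM, neighbouring small leucine-rich proteoglycans on chromosome 12, had r = 0.83, but DCN had r = 0.44 with COL1A1 and 0.38 with IGF2.

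**Figure D2:**
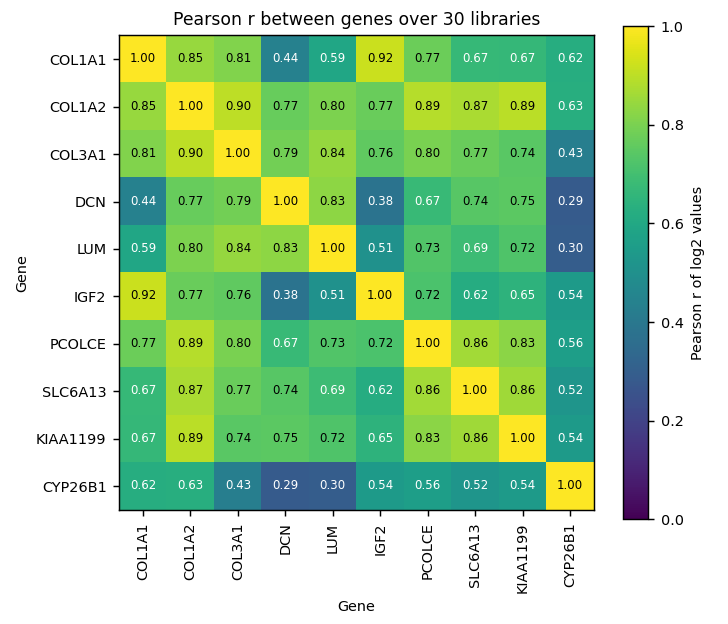
Pearson r of log2(normalized reads + 1) between each pair of the 10 genes over 30 libraries, from 0 (dark) to 1 (yellow). COL1A2 is high with nearly all others, and DCN and LUM are low with IGF2 and CYP26B1, down to 0.29 for DCN with CYP26B1.

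The first principal component of the 10 scaled genes held 73.5% of their variance, with loadings of 1 sign for all 10 (0.23 for CYP26B1 to 0.36 for COL1A2). The second held 11.2% and set COL1A1, IGF2 and CYP26B1 (loadings 0.37, 0.41 and 0.51) apart from DCN and LUM (−0.51 and −0.39). The log2 difference of COL1A1 minus DCN, which follows that split, averaged −1.54 ± 0.92 in cohort 4 (SD, n = 9), −1.80 ± 0.80 in cohort 5 (n = 8), −1.69 ± 1.43 in cohort 7b (n = 5) and −0.61 ± 0.35 in cohort 7a (n = 8). The youngest cohort thus had the most COL1A1 for its DCN. Within cohorts the median pair r was 0.55 in cohort 4 (n = 9), 0.77 in cohort 5 (n = 8) and 0.78 in cohort 7a (n = 8), and cohort 7b held too few animals for a value.

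Heavy drinkers had the lowest mean of the 4 categories in all 10 genes, from the collagens to the retinoic acid enzyme, but the groups overlapped and no gene passed the adjusted test. The 10 genes vary together (median pair r 0.74), so a direction they share, here or below, is not 10 separate observations. How often HD had the lowest mean over all tested genes was not counted. Each difference below is a log2 estimate ± SE of limma from a model with category and cohort over all 30 libraries, and all 3 differences are taken from the same LD animals. In HD against LD all 10 genes had estimates below 0 (49.5% of all tested genes did), with a median of −0.91 against 0.0027 over all tested genes. None of the 12935 genes had an adjusted p under 0.05 in limma (0% called, with Benjamini-Hochberg adjustment), and 1623 (12.5%) had an unadjusted p under 0.05. edgeR on the recovered reads likewise called 0 genes in this and the other 5 comparisons, with 1518 at an unadjusted p under 0.05 here. All 10 genes had an unadjusted p under 0.05 in limma, where 6.68% of tested genes had one in the lower direction, and their adjusted p lay between 0.298 and 0.395.

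COL1A1, the α1 chain of type I collagen, had 32.5, 167 and 390 normalized reads as lowest, median and highest value in HD, against 74.2, 240 and 640 in LD. COL1A2, the α2 chain, had 204, 598 and 2129 in HD, against 366, 1006 and 2377 in LD. COL3A1, type III collagen, which accompanies type I in extensible tissues, had 140, 247 and 1040 in HD, against 227, 576 and 871 in LD. In each of the 3 genes, 6 of 7 HD animals lay below the LD median and 2 lay below every LD animal, and the groups overlapped. The estimates were −1.32 ± 0.42 for COL1A1, −1.13 ± 0.39 for COL1A2 and −1.001 ± 0.327 for COL3A1. Without HD replicate 3 they were −0.79, −0.69 and −0.64, and without HD replicate 5 they were −1.50, −1.32 and −1.18.

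PCOLCE, the enhancer that speeds removal of the C-propeptide from procollagen, had 20.7, 39.9 and 132 normalized reads (lowest, median, highest) in HD, against 41.8, 77.1 and 171 in LD. In 4 of 7 HD animals it lay below every LD animal. Its estimate was −1.13 ± 0.28 (−0.94 without HD replicate 3 and −1.26 without HD replicate 5). The small leucine-rich proteoglycans bind collagen fibrils and set their width. DCN had 368, 443 and 1297 normalized reads in HD, against 333, 691 and 892 in LD. LUM, lumican, had 35.4, 80.7 and 271 in HD, against 68.3, 123 and 223 in LD. For both, the HD range held the highest of the 30 libraries, HD replicate 5, while 6 of 7 HD animals lay below the LD median. The estimates were −0.46 ± 0.22 for DCN and −0.81 ± 0.29 for LUM. Without HD replicate 3 they were −0.38 for DCN and −0.39 for LUM, and without HD replicate 5 they were −0.59 and −0.98.

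IGF2, a growth factor made by leptomeninges and choroid plexus, had 118, 164 and 513 normalized reads (lowest, median, highest) in HD, against 151, 350 and 765 in LD. The HD values lay mostly low, with 5 of 7 below the LD median, and the estimate was −0.81 ± 0.30 (−0.54 without HD replicate 3 and −0.96 without HD replicate 5). SLC6A13, the GABA and taurine transporter GAT2 of leptomeningeal cells, had 54.1, 81.2 and 284 in HD, against 83.5, 155 and 325 in LD. Of the HD animals, 4 lay below every LD animal, and the estimate was −1.11 ± 0.29 (−1.10 without HD replicate 3 and −1.24 without HD replicate 5). KIAA1199, an older symbol of CEMIP, encodes a protein that binds and breaks down hyaluronan. It had 561, 855 and 1346 in HD, against 565, 1111 and 1604 in LD, and the estimate was −0.48 ± 0.17 (−0.42 without HD replicate 3 and −0.55 without HD replicate 5). CYP26B1, a cytochrome P450 that degrades retinoic acid, had 38.8, 55.1 and 84.7 in HD, against 37.7, 71.4 and 244 in LD. Here no HD animal lay below the lowest LD animal, and the estimate was −0.55 ± 0.27 (−0.61 without HD replicate 3 and −0.56 without HD replicate 5).

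**Figure D3:**
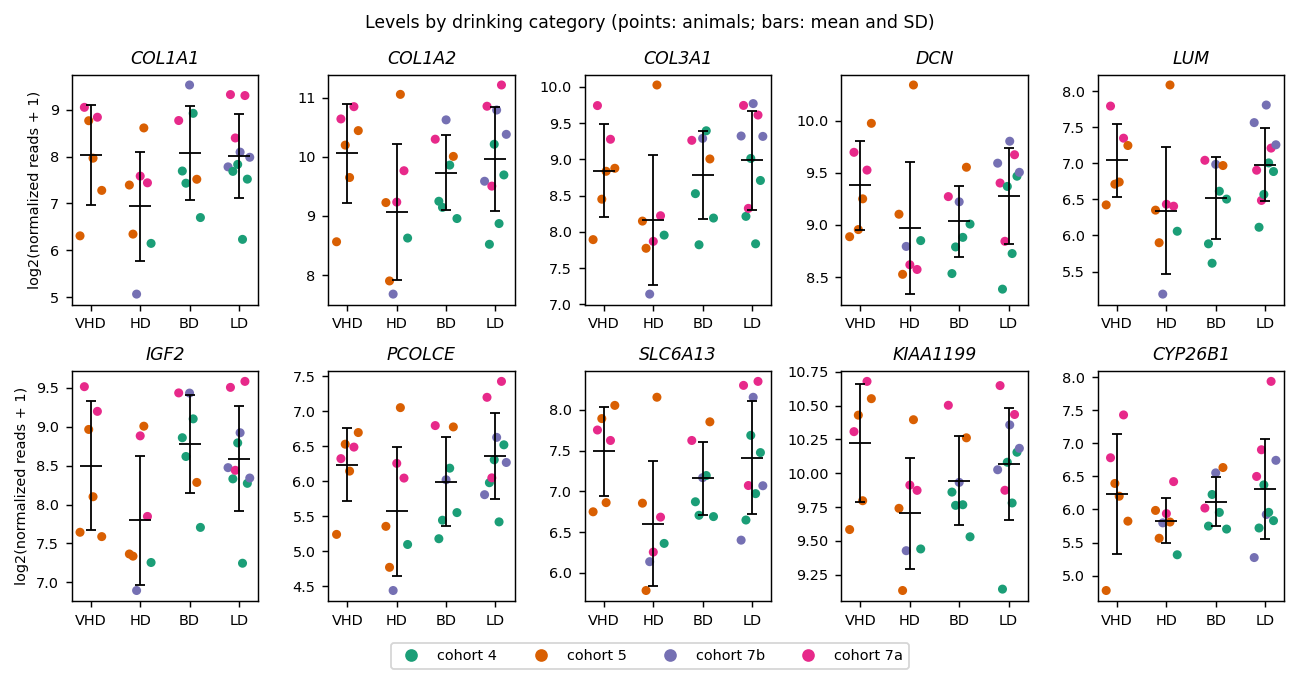
Levels of the 10 genes by drinking category, as log2(normalized reads + 1); each point is an animal, coloured by cohort, and bars give the mean and SD. In all 10 panels the HD mean (n = 7) is the lowest of the 4 means, HD replicate 5 (cohort 5) tops its group in every panel but CYP26B1, and HD and LD (n = 10) overlap in every panel.

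Leaving out HD replicate 5 widened the HD differences to −1.50 to −0.55 over the 10 genes, with a smallest adjusted p of 0.081 in limma. Without HD replicate 3, 3 of the 10 genes had an unadjusted p under 0.05 and the estimates ran from −1.10 to −0.38, with a median of −0.62. With sets of 8 consecutive library numbers as a further term, 7 of the 10 did, the estimates ran from −1.07 to −0.20 and the adjusted p was 0.974 in limma. In cohort 7a, both HD animals (mean z −0.44 and −0.40) stood below the 3 LD animals (−0.048 to 1.49), and all 10 estimates were below 0 there. In cohort 7b, HD replicate 3 was the only HD animal, at −1.75 against 0.0087 to 0.91 in 3 LD animals, and it is the library that lies apart there, so that cohort gives no further check of the difference. In cohort 4, the single HD animal stood at −1.20 against −0.83 to 0.32 in 4 LD animals. The 3 HD animals of cohort 5 had no LD animal beside them, and stood at −1.53, −0.60 and 1.24 against −1.06 to 0.49 in 4 VHD animals.

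In VHD, with cohort left aside, 8 of the 10 genes had a median above the LD median, COL3A1 and DCN being the exceptions. The share of all tested genes with such a median was not counted. For VHD against LD, 0% of tested genes were called (453, or 3.5%, at an unadjusted p under 0.05), and the estimates of the 10 genes ran from −0.72 to −0.041, all below 0, where 50.1% of all tested genes were. Only PCOLCE (−0.72 ± 0.34) had an unadjusted p under 0.05, where 1.74% of genes had one in the lower direction. This direction depends on the cohort term and on single animals. Without the cohort term 4 of 10 estimates were below 0, and within cohort 7a, with 2 VHD and 3 LD animals, likewise 4 of 10. The median over the 10 genes was −0.27, against −0.094 without HD replicate 3 (8 of 10 below 0), −0.11 without HD replicate 5 (6 of 10) and −0.11 without VHD replicate 1 (9 of 10). It was −0.45 without VHD replicate 2, −0.48 without VHD replicate 5 and −0.47 without LD replicate 4. COL1A1 stood at −0.43 with all animals, −0.10 without HD replicate 3 and −0.19 without HD replicate 5. COL1A1 had a median of 342 normalized reads in VHD (78.3 to 530), against 240 in LD (74.2 to 640), and SLC6A13 of 205 in VHD (107 to 265), against 155 in LD (83.5 to 325). Whether HD and VHD differ from each other was not tested.

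In BD, with cohort left aside, 9 of the 10 genes had a median below the LD median, IGF2 being the exception. Here too the share of all tested genes was not counted. No gene was called for BD against LD (0%; 394, or 3.05%, at an unadjusted p under 0.05, 1.48% of genes in the lower direction), and none of the 10 had an unadjusted p under 0.05. Their estimates ran from −0.36 (LUM) to 0.38 (IGF2), with 8 of 10 below 0 where 50% of all tested genes were, and an adjusted p of 0.999 in limma. IGF2 had 208, 463 and 690 normalized reads (lowest, median, highest) in BD, against 151, 350 and 765 in LD. For COL1A1, BD replicate 4 was the highest of all 30 libraries at 738. Without that animal the COL1A1 estimate was −0.092, against 0.28 ± 0.39 with it. Tested over all 4 categories at once, 8 of the 10 genes had an unadjusted p under 0.05 (5.62% of tested genes did), with adjusted p of 0.861 to 0.865 in limma.

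The genes also varied with cohort. Over all 4 cohorts at once, 6 of the 10 had an unadjusted p under 0.05 (8.04% of tested genes did), with adjusted p of 0.322 to 0.704 in limma. Cohort 4, the oldest, had lower values than cohort 7a, the youngest, in all 10 genes (48.2% of all tested genes had an estimate below 0), with a median of −0.91 against 0.0057 over all tested genes. None passed the adjusted test in the 12935 genes (0% called; 1183, or 9.15%, at an unadjusted p under 0.05), and 9 of the 10 had an unadjusted p under 0.05, where 4.21% of genes had one in the lower direction. Age, cohort and everything else that differed between cohorts cannot be told apart.

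COL1A1 had 69.9, 182 and 485 normalized reads as lowest, median and highest value in cohort 4, against 173, 447 and 640 in cohort 7a. Its estimate of −1.62 ± 0.40 (adjusted p 0.147 in limma) was the lowest of all 12935 genes in that comparison. COL1A2 had 366, 565 and 1185 in cohort 4, against 601, 1427 and 2377 in cohort 7a, and stood at −1.28 ± 0.37. All 9 animals of cohort 4 lay below the cohort 7a median of COL1A2 and 5 lay below every animal of cohort 7a. IGF2 had 151, 321 and 548 in cohort 4, against 229, 638 and 765 in cohort 7a (estimate −1.08 ± 0.29). PCOLCE had 33.2, 45.9 and 90.8 in cohort 4, against 65.0, 83.9 and 171 in cohort 7a (−1.07 ± 0.27). CYP26B1 had 38.8, 55.9 and 81.8 in cohort 4, against 60.3, 99.2 and 244 in cohort 7a (−0.99 ± 0.26). These 3 genes lay low in cohort 4 as the collagens did, with 6 of 9 animals below every cohort 7a animal for PCOLCE.

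The estimates of the other genes were smaller. COL3A1 stood at −0.82 ± 0.31, SLC6A13 at −0.68 ± 0.28, LUM at −0.64 ± 0.28 and KIAA1199 at −0.62 ± 0.16. DCN, at −0.35 ± 0.21, was the only one of the 10 without an unadjusted p under 0.05. The library number sets as a further term lowered the estimates here and brought those of HD against LD nearer to 0. With that term, 15 of all 12935 genes passed the adjusted test in limma, and 6 of the 10 were among them (adjusted p 0.041 to 0.049). These were COL1A1 (−1.95), COL1A2 (−1.65), PCOLCE (−1.36), IGF2 (−1.25), CYP26B1 (−1.18) and KIAA1199 (−0.77). In no other setting run for this comparison did any of the 10 pass. The first set held 4 of the 7 HD animals, 1 LD animal and none of cohort 4, and its mean z value averaged −0.45 ± 1.001 (SD, n = 8), against 0.19 ± 0.80, 0.21 ± 0.77 and 0.095 ± 0.79 in the other sets. Within HD, the animals of the first set were replicates 1 to 4.

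**Figure D4:**
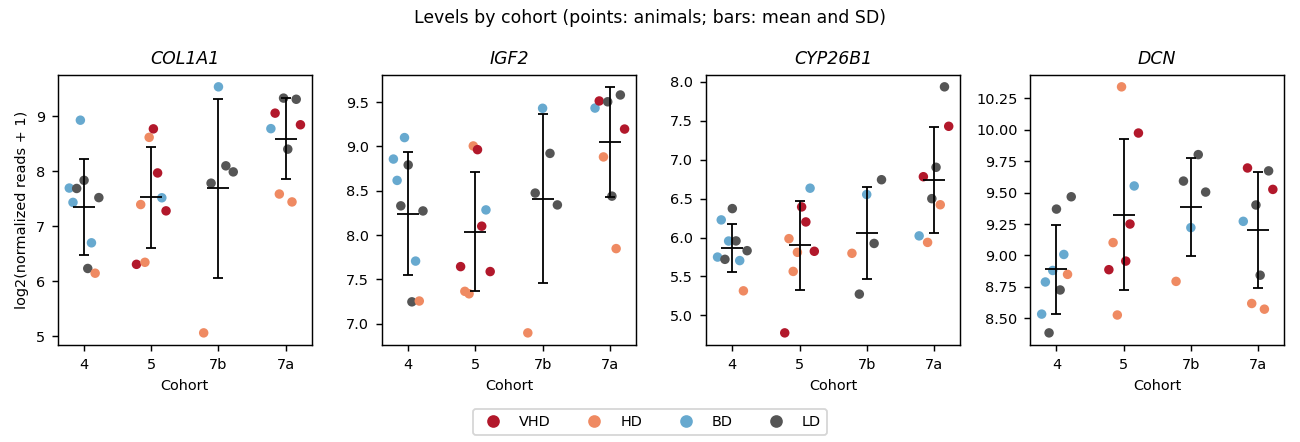
Levels of COL1A1, IGF2, CYP26B1 and DCN by cohort, as log2(normalized reads + 1); each point is an animal, coloured by drinking category, and bars give the mean and SD. Cohort 7a (n = 8) is the highest of the 4 cohorts for COL1A1, IGF2 and CYP26B1, while DCN is similar in cohorts 5, 7b and 7a and lowest in cohort 4 (n = 9).

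Single exons varied with their genes, and each gene value is the sum of its exons. All 52 exons of COL1A2 (chromosome 7, 119452400 to 119488983 as the exon names give it; build not given in the sources used here) had a median of at least 5 normalized reads, and their r to the rest of the gene had a median of 0.91. COL1A1 (chromosome 17, 42902238 to 42920140) had 51 exons, of which 15 reached that median, and a median r of 0.83. IGF2 (chromosome 11, 1922003 to 1931726) had 4 exons. Its exon at 1922003 to 1926054 (4052 bases) held 92.7% of the gene's reads, so the IGF2 value is in effect the value of that exon. Since the strand setting of the counting is not given, reads of IGF2 and of any gene that overlaps it on the other strand cannot be told apart. The CYP26B1 exon at 73210584 to 73213986 on chromosome 2a held 68.5% of its reads. DCN lies at 90198990 to 90233512 and LUM at 90156899 to 90164970 on chromosome 12.

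Genes outside the 10 were ranked by r to the mean z value of the 10. Of 12925 other genes tested, 334 (2.58%) had r over 0.5 and 143 (1.11%) had r under −0.5. The highest were SLC6A20 (0.92), a proline transporter, SLC13A4 (0.92), a sulfate transporter of leptomeninges, and MFAP4 (0.91), a protein of elastic microfibrils. CPZ, COL6A3, SLC13A3, WFIKKN2, SLC22A8, OSR1, SERPIND1, PTGDS, FMOD, PTN, ZIC1 and ITIH5 made up the first 15, down to 0.87. SLC13A3 carries dicarboxylates and SLC22A8 organic anions, both at the barrier between blood, cerebrospinal fluid and brain. SLC6A20 had 37.1 to 622 normalized reads over the libraries and stood at −1.13 ± 0.39 in HD against LD and −1.05 ± 0.37 in cohort 4 against cohort 7a, close to COL1A2. It was ranked by its r to the 10 over these same libraries, so this likeness follows from the ranking. The lowest r of all was that of MLLT4 (−0.72), an adherens junction protein.

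The single genes had partners of their own. For each, the 3 genes outside the 10 with the highest r over 30 libraries were taken. Some pairs within the 10 lay above these, such as COL1A1 with IGF2 (0.92), PCOLCE with COL1A2 (0.89) and LUM with COL3A1 (0.84). Outside the 10, COL1A1 was closest to MMP2 (0.85), the gelatinase, HSPG2 (0.85), perlecan of basement membranes, and OSR1 (0.83), and IGF2 to HSPG2 (0.83), VIM (0.81) and OSR1 (0.81). COL1A2, SLC6A13 and KIAA1199 had SLC13A4 among their first 3, at 0.93, 0.91 and 0.90. DCN was closest to OGN (0.89), osteoglycin of the same proteoglycan family, and FRZB (0.89), a secreted Wnt antagonist. LUM had OLFML3 (0.83), the collagen receptor DDR2 (0.83) and TBX18 (0.82). CYP26B1 had ZNF710 (0.71), IDH2 (0.66) and PIK3CD (0.66) as its nearest genes, none of them among those of the other 9.

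The matrix that fibroblasts build followed the 10 genes in part. Of 31 tested glycoproteins of fibroblast matrix, 17 had r over 0.5 (median r 0.57, against −0.011 over all tested genes), among them MFAP4, NID1 (0.85), FRZB (0.84) and FN1 (0.82), fibronectin. Of 11 tested small leucine-rich proteoglycans other than DCN and LUM, 6 did so, led by FMOD (0.88), OGN (0.86), ECM2 (0.78) and OMD (0.78). Other collagens split. Among 22 tested, 7 had r over 0.5, with COL6A3 (0.90), COL8A2 (0.80), COL4A6 (0.72) and COL5A2 (0.70) at the top, while the vessel basement membrane collagens COL4A1 (−0.066) and COL4A2 (0.17) and COL24A1 (−0.38) did not follow. Of 29 genes that fold, cut and cross-link collagen, 3 had r over 0.5: CTSK (0.82), the collagen-degrading cathepsin, SERPINH1 (0.78), the collagen chaperone, and MRC2 (0.73). SPARC, the most abundant of that list, had r = 0.015, and its estimate for HD against LD was 0.067 ± 0.13.

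Pathways of the single genes followed through a few members. In the retinoic acid pathway, 7 of 25 tested genes had r over 0.5 to the 10, with the binding proteins CRABP1 (0.82) and CRABP2 (0.79) and the synthesizing enzyme ALDH1A2 (0.68), while CYP26A1, a paralog of CYP26B1, stood at −0.37. In the insulin-like growth factor system, 3 of 19 did: IGFBP4 (0.75), IGFBP6 (0.64) and IGFBP7 (0.55). Of 13 tested GABA and other SLC6 transporter genes 3 did, SLC6A20 (0.92) and SLC6A4 (0.60) among them, and the median r was −0.016. In hyaluronan metabolism 2 of 19 did, ITIH5 (0.87) and STAB1 (0.69). Of the TGF-β and fibrosis list, 5 of 21 did, led by TGFBR3 (0.86) and MMP2 (0.83), and TGFB2 stood at −0.53.

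Against LD, the HD estimates of some of these lists lay low, with no gene called. Of 54 meningeal and arachnoid markers, 16 had an unadjusted p under 0.05 in the lower direction and 1 in the higher, against 6.68% lower and 5.87% higher over all tested genes, with a median of −0.16. For fibroblast glycoproteins these numbers were 11 and 1 of 31 (median −0.27), and for other collagens 7 and 1 of 22 (median −0.28). They were 3 and 0 of 11 for small proteoglycans (median −0.38), 5 and 1 of 21 for the TGF-β list (median −0.22), 4 and 0 of 19 for hyaluronan metabolism (median −0.14) and 4 and 1 of 13 for SLC6 transporters (median −0.055). The other lists of matrix and pathways lay nearer to the background: 4 and 2 of 29 for collagen processing (median −0.071), 3 and 1 of 25 for the retinoic acid pathway (median −0.067) and 1 and 0 of 19 for the insulin-like growth factor system (median −0.12). Lists of other cells, described below, had low counts too: 5 and 0 of 20 for astrocytes (median −0.058) and 4 and 0 of 16 for vessel muscle and pericytes (median −0.24). They were 4 and 0 of 17 for microglia and macrophages (median −0.12), 3 and 2 of 18 for endothelium (median −0.058) and 3 and 0 of 15 for myelin (median −0.27). Surface astrocytes and layer 1 had 1 and 0 of 10 (median −0.25), and neurons 0 and 3 of 18 (median 0.042). In cohort 4 against cohort 7a, 10 of 54 meningeal markers had an unadjusted p under 0.05 in the lower direction and 3 in the higher (median −0.17), against 4.21% lower and 4.94% higher over all tested genes. All of these lists, like the 10 genes, were picked with earlier results of these libraries known. Genes that follow the 10 over the same libraries also share their group differences in part, so the counts are no independent evidence.

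Markers of other cells that the tissue piece could hold moved with the 10 genes to differing degrees. Vessel muscle and pericyte genes had r over 0.5 in 1 of 16 (ANPEP, 0.60), with a median r of 0.23. The mean z value of that list had r = 0.34 with that of the 10 genes, and 0.67 once category and cohort means were removed. The summed level of these 16 genes ran from 2284 to 4281 normalized reads in HD, against 2208 to 6526 in LD. In cohort 4 it ran from 2869 to 6653, against 2145 to 3727 in cohort 7a. Among endothelial genes 3 of 18 had r over 0.5, KDR (0.85), CD93 (0.53) and TIE1 (0.51). The mean z value of the endothelial list had r = 0.31 with that of the 10 genes, and 0.55 once category and cohort means were removed. Endothelial sums had a median of 4823 normalized reads in HD (4475 to 6533), against 4852 in LD (3764 to 5423). Cohort 5, which held no LD animal, had the highest cohort median at 5665. Of genes of surface astrocytes and cortical layer 1, 4 of 10 had r over 0.5: VIM (0.87), RELN (0.60), ID1 (0.56) and NDNF (0.55), and their sum ran from 4346 to 7683 in HD, against 5095 to 8021 in LD. Among microglia and macrophage genes 1 of 17 had r over 0.5, F13A1 (0.67), a marker of border macrophages, but the median r was 0.33 and the mean z value of the list had r = 0.65 with that of the 10 genes. Their sum had a median of 2382 normalized reads in HD (2123 to 3165), against 2765 in LD (2475 to 3585). The 20 astrocyte genes had a median r of 0.11.

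Myelin genes lay on the other side. None of 15 had r over 0.5 (median −0.28), and MBP, the basic protein of myelin, stood at −0.52. In cohort 4 against cohort 7a all 15 had estimates above 0 with a median of 0.67, and 11 had an unadjusted p under 0.05 in the higher direction, where 4.94% of all tested genes did. Their sum ran from 6579 to 26426 normalized reads in cohort 4, against 6126 to 9938 in cohort 7a. In HD against LD all 15 lay below 0 with a median of −0.27, the same side as the 10 genes, with sums of 5622 to 9118 in HD, against 6555 to 15074 in LD. Neuronal genes had r over 0.5 in 0 of 18 (median −0.12), and MAP2 stood at −0.60. The part that the share of meninges, vessels, layer 1 or white matter in each piece had in these values was not tested.

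The choroid plexus and blood markers named here had low levels. OTX2, which defines choroid plexus, was at 0 in 26 of 30 libraries, FOLR1 reached at most 4.88 and TTR at most 32.9 normalized reads, and none of the 9 tested choroid and ependymal genes had r over 0.5 (sums of 394 to 550 in HD, against 439 to 571 in LD). The hemoglobin gene HBB reached at most 23.5 normalized reads and HBM was at 0 in 30 of 30, in brains that had been perfused.

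**Figure D5:**
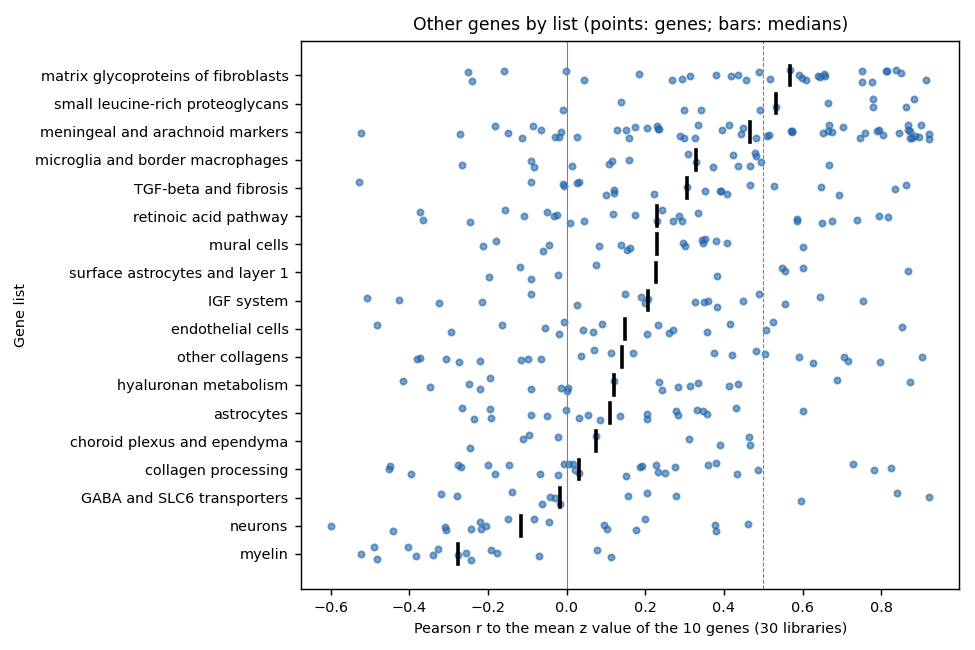
Pearson r of each tested gene of 18 lists to the mean z value of the 10 genes over 30 libraries; points are genes, black bars list medians, the dashed line marks 0.5. Fibroblast glycoproteins (median 0.57), small proteoglycans (0.53) and meningeal markers (0.46) lie to the right, neurons (−0.12) and myelin (−0.28) to the left.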

How the data were processed

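Area 32 of 30 macaques was sequenced from ribosome-depleted, stranded total RNA libraries, 4 to a lane. The authors deposited a gene and an exon signal table, in normalized reads scaled to a common upper quartile; CASAVA, FastQC, STAR 2.3.0e and edgeR are named per the submitters' processing notes, with counter, strand setting, build and annotation not given in the sources used here. In the deposited signal, 100% of values were within 0.01 of whole reads, 1 read being worth 0.656 to 2.07 normalized reads, which gave the depths. Precision is limited by animals, and by counting at the lowest values.

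Values were taken as log2(value + 1). limma 3.58.1 in R 4.3.3 (mean trend) was fitted to 12935 genes with category and cohort, with Benjamini-Hochberg adjustment at 0.05, for VHD, HD and BD against LD, any category, any cohort, and cohort 4 against cohort 7a. Fold changes are on the log2(value + 1) scale. The scripts were tested on simulated data. edgeR 4.0.16 on recovered reads and DESeq2 1.42.0 median-of-ratios factors served as alternatives, beside pseudocounts of 0.25 and 4, no filter, a minimum of 100, log2 depth, sets of 8 library numbers, single cohorts, models without cohort or category, each library left out and, chosen after seeing the data, leaving out 6 libraries under 6 M reads. Symbols of 9 of the 10 genes matched RefSeq. No sequences are shown. The 10 genes and all lists were chosen with earlier results of these data known. Named genes are the 10, the 15 most alike, 3 per gene, and up to 4 per list by r or p with its most abundant gene; COL4A1, COL24A1, CYP26A1, TGFB2, MBP, MAP2, MLLT4, OTX2, FOLR1, HBB and HBM were chosen after their values were seen. Replicates are animals, numbered in accession order. A few genes within the naming rule are not reported here.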

Additional observations from a re-analysis of the deposited data

Results flagged for a closer look

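Of 80 groups examined (10 genes in 4 categories and 4 cohorts), 4 held an animal far from the others by Dixon's criterion, and chance gives about 1 in 20. HD replicate 5, from cohort 5, was the highest of 7 HD animals for COL3A1 at 1040 normalized reads (next 298), for DCN at 1297 (next 549) and for LUM at 271 (next 85.4). HD replicate 3 was the lowest of 5 animals of cohort 7b for COL3A1 at 140 normalized reads (next 624).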

How the results depend on the processing

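No paired analysis was possible because the replicate numbers follow accession order and pair no animals across groups. Over all genes, calls changed in few settings. HD against LD gave 1 gene without the cohort term and 12 within cohort 7b (1 HD animal, HD replicate 3, with no spread of its own), any cohort gave 1 with library sets, and cohort 4 against cohort 7a gave 15 with library sets and 26 without the category term, against 0 each. With 1 library left out it gave 0 to 7 (7 without BD replicate 1, 1 without LD replicate 9). The median pair r was 0.55 within cohort 4. All 10 genes were below 0 in HD against LD and in cohort 4 against cohort 7a in every setting that tested them. The minimum of 100 normalized reads left out CYP26B1, so 9 were tested there. For VHD against LD, estimates above 0 without the cohort term were COL1A1 0.020, COL1A2 0.094, DCN 0.11, KIAA1199 0.16, LUM 0.063 and SLC6A13 0.076, and within cohort 7a COL1A2 0.22, COL3A1 0.28, DCN 0.31, IGF2 0.18, KIAA1199 0.17 and LUM 0.70. For BD against LD, COL1A1 was −0.019 with library sets, −0.24 within cohort 7a and −0.0058 without the libraries under 6 M reads; COL1A2 was 0.067 with log2 depth and 0.37 within cohort 7b; COL3A1 was 0.041 within cohort 4 and 0.036 within cohort 7a; CYP26B1 was 0.11 with library sets and 0.57 within cohort 7b; KIAA1199 was 0.011 with log2 depth and 0.18 within cohort 7a; and LUM was 0.18 within cohort 7a. With 1 library left out, signs turned for BD against LD in COL1A1 (−0.092 to 0.47), COL1A2 (−0.22 to 0.086), COL3A1 (−0.21 to 0.036), CYP26B1 (−0.16 to 0.16) and KIAA1199 (−0.14 to 0.020), and for VHD against LD in DCN (−0.30 to 0.027), IGF2 (−0.34 to 0.027), KIAA1199 (−0.16 to 0.051) and LUM (−0.49 to 0.039). The cause was not tested. The 6 libraries under 6 M reads limit the low genes most.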
